A study of Mus musculus with 24 samples.

Results

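The genes described here encode mitochondrial enzymes of the tricarboxylic acid (TCA) cycle between citrate and succinate. They are Cs, Idh3a, Idh3b, Idh3g, Ogdh, Dlst, Sucla2, Suclg1 and Suclg2, taken by symbol from the gene table of mouse inguinal fat (IWAT, for inguinal white adipose tissue). All 9 were found among the 16821 genes of the table, and all 9 passed the filter on low counts that left 15176 genes for testing. The libraries came from 24 male C57BL6/J mice bought from JAX, 6 on each of 4 diets, each library from its own mouse. Elemental MR mice ate free (elemental) amino acids with 0.17% methionine (MR stands for methionine restriction), and elemental control mice ate the same protein source with 0.86% methionine. Oxidized casein MR mice ate casein whose methionine had been destroyed by oxidation and then restored to 0.17%, and casein control mice ate intact casein. The series text gives its control diets as 0.86% methionine. The labels name no allele or drug. Feeding began at 5 weeks of age and lasted 12 weeks, and tissue was taken at 4 months, with food withheld for the last 4 h. Each diet group had 8 mice, of which 6 were profiled. The casein pair differs in the oxidation of the protein as well as in methionine, so these cannot be told apart in it. The design text of the series speaks of the liver, whereas IWAT is named in its title, in the source field and in the extraction protocol.

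Citrate synthase (Cs) joins acetyl-CoA to oxaloacetate and so starts the cycle. The NAD-dependent isocitrate dehydrogenase, built from a catalytic α subunit (Idh3a) with β and γ subunits (Idh3b, Idh3g), gives 2-oxoglutarate, and the 2-oxoglutarate dehydrogenase complex, with Ogdh as its E1 and Dlst as its E2 component, turns that into succinyl-CoA. Succinyl-CoA synthetase then yields succinate through an α subunit (Suclg1) paired with either an ADP-using (Sucla2) or a GDP-using (Suclg2) β subunit. White adipocytes hold few mitochondria, and brown and beige adipocytes hold many.

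The start-site windows of 4 of these genes are shown because they belong to the enzymes whose subunits are set against each other in the results: the alternative β subunits Sucla2 and Suclg2, the regulatory subunit Idh3b and the E2 component Dlst. The windows are RefSeq's, on build GRCm38.p6, 250 bases before to 50 bases after an annotated start site, written 5′ to 3′ on the gene's own strand. They lie at chr14:73552536-73552835 (+ strand), chr6:95718797-95719096 (- strand), chr2:130284402-130284701 (- strand) and chr12:85110583-85110882 (+ strand). Capitals mark matches, on either strand, to the NRF1 motif (GCGCA and GCGC with 1 base between them), the ETS motif CCGGAAG or the GC box GGGCGG.
Sucla2: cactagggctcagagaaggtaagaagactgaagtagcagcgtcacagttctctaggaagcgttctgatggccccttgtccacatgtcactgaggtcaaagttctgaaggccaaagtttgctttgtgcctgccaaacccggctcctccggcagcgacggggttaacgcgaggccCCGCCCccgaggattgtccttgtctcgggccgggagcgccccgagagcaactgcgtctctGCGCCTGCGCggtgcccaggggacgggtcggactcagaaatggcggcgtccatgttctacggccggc
Suclg2: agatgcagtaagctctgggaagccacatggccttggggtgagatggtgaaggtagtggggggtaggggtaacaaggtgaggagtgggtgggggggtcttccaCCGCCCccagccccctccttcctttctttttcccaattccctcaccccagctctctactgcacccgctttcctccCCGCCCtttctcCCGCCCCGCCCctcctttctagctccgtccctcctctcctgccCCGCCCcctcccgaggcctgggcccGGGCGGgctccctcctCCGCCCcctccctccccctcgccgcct
Idh3b: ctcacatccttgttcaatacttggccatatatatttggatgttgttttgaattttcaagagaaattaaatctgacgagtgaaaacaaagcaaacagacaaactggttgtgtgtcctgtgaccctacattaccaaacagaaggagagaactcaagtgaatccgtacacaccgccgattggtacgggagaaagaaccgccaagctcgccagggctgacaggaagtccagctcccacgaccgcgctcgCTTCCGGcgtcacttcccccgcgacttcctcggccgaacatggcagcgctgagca
Dlst: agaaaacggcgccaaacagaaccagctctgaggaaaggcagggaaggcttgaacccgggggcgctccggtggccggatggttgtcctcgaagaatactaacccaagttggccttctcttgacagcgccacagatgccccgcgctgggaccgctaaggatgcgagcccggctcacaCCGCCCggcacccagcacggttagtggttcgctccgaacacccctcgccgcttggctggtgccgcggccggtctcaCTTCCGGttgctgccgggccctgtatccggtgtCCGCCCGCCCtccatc
Windows were available for 8 of the 9 genes, all but Idh3a. The NRF1 motif was in the window of 1 of these 8, Sucla2, at offset -17 from its RefSeq start site, and in 5.19% of 27025 mouse genes with a window. That start site lies inside the gene as GENCODE places it (chromosome 14, 73525319 to 73596142, + strand), not at the GENCODE start. The RefSeq start site of Idh3b also lies inside its GENCODE gene (chromosome 2, 130279309 to 130284547, - strand). That of Suclg2 lies upstream of its GENCODE gene (chromosome 6, 95473009 to 95718800, - strand). The ETS motif was in 3 of 8, Idh3b at offset -5, Dlst at offset 1 and Idh3g at offset -104, and in 9.93% of genes. The GC box was in 5 of 8, with 7 matches in the Suclg2 window alone, and in 38.2% of genes. The ERR motif TCAAGGTCA was in 0 of 8 and in 0.466% of genes, and the half-site AAGGTCA that lies within it was in 1, Ogdh, and in 5.38% of genes. The CCAAT box CCAAT was in 4 of 8 and in 41.1% of genes, and the E-box CACGTG was in 1, Ogdh, and in 8.09% of genes. Ogdh has 6 annotated windows and every other gene 1. These matches describe letters in a window and are not binding sites shown by these data.

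Library totals ran from 7468336 to 19868913 reads. The white adipocyte markers were abundant in every diet, with Adipoq (adiponectin) averaging 2586 ± 679 CPM in elemental MR, 2860 ± 1074 CPM in elemental control, 3419 ± 1037 CPM in oxidized casein MR and 2999 ± 1349 CPM in casein control libraries (SD, n = 6 each; CPM values are reads divided by the TMM-scaled library total). B cell markers split the libraries into 15 with and 9 without lymph node transcripts, and those with them were 5 of 6 in elemental MR, 4 of 6 in elemental control, 2 of 6 in oxidized casein MR and 4 of 6 in casein control. Skeletal muscle transcripts were high in replicate 2 of elemental MR and replicate 2 of elemental control, with Acta1 at 1239 and 2946 CPM against at most 166.3 CPM elsewhere, and Alb, a liver transcript, reached 5610 CPM in elemental control 6. Both libraries high in muscle transcripts were without lymph node transcripts, and elemental MR 2 was the only elemental MR library without them. Mitochondrially encoded transcripts took 29.5% to 36.2% of reads in elemental MR, 21.6% to 31.1% in elemental control, 22.6% to 35.8% in oxidized casein MR and 15.1% to 24.2% in casein control. In a bulk sample, fewer cells of a type and less RNA per cell cannot be told apart.

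**Figure D1:**
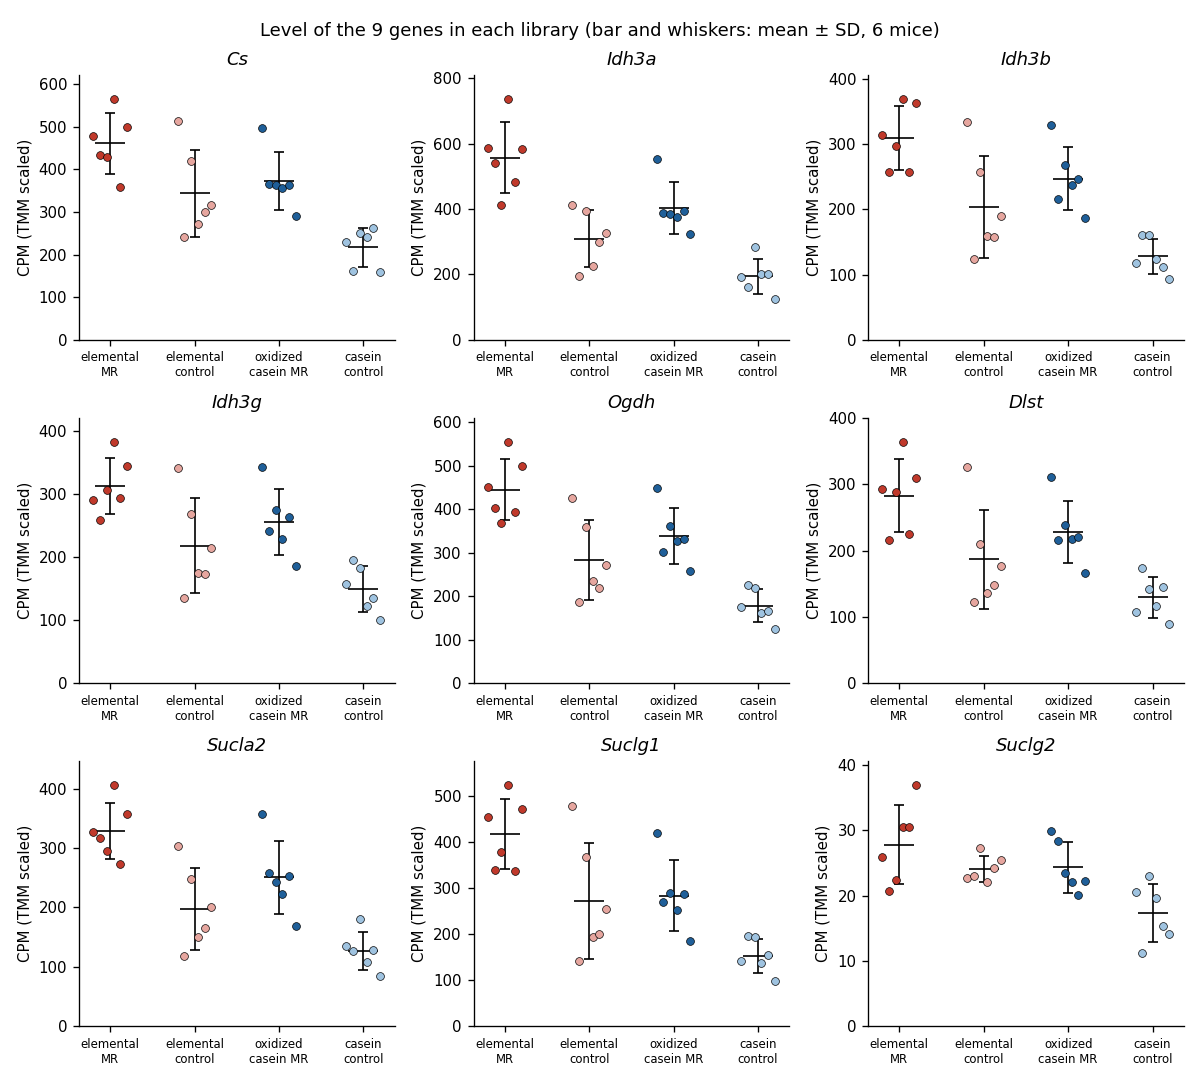
CPM (vertical axis, from 0) of each of the 9 genes in each of the 24 libraries by diet, with 1 point per mouse and the mean ± SD of 6 mice. For each gene the mean is highest in elemental MR and lowest in casein control, and Suclg2 lies far below the other genes.

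The diets stood in the same order for all 9 genes. Mean levels were highest in elemental MR, then oxidized casein MR, then elemental control, and lowest in casein control. The middle pair of that order, oxidized casein MR and elemental control, overlapped in range for all 9 genes. By median, Suclg2 had this pair the other way round, at 22.9 CPM in oxidized casein MR and 23.6 CPM in elemental control. Among genes, levels are set side by side without a length correction because the 3′ kit reads 1 stretch per transcript. Whether 3′ end annotation or mapping differed between genes was not checked, so these are ranks of CPM only. Idh3a had the highest mean CPM of the 9 in elemental MR and oxidized casein MR, whereas Cs had it in elemental control and casein control. Ogdh and Suclg1 followed these 2 on every diet, and Suclg2 was last on every diet, at 27.8 ± 6.01 CPM in elemental MR, 24.1 ± 2.0 in elemental control, 24.3 ± 3.87 in oxidized casein MR and 17.3 ± 4.43 in casein control (SD, n = 6 each).

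The casein pair asks what methionine restriction built on oxidized casein does beside intact casein. In it, 8 of the 9 genes rose (adjusted p under 0.05 by edgeR's quasi-likelihood test with Benjamini-Hochberg adjustment over the 15176 genes), where 3.35% of all tested genes were called higher. All 9 estimates were positive, as were 41.9% of those of tested genes. The rise of the 8 was between 1.71-fold and 2.08-fold and took in citrate synthase, the 3 isocitrate dehydrogenase subunits, the E1 and E2 components of the 2-oxoglutarate complex and 2 succinyl-CoA synthetase subunits. Of the 9, only the GDP-using subunit gene Suclg2 was short of the threshold. The median log2 fold change of the 9 genes was 0.89, against -0.06 over all tested genes. In 4 of them, Cs, Idh3a, Idh3b and Ogdh, each of the 6 oxidized casein MR libraries lay above each casein control library, which 2.27% of tested genes did.

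Cs on chromosome 10 (128337734 to 128362479, + strand, GRCm38, as are all gene positions here) ranged over 292 to 497 CPM in oxidized casein MR libraries, with a median of 364, against 159 to 263 CPM, median 236, in casein control libraries. The ranges did not meet, and the log2 fold change was 0.78 ± 0.18 (SE; edgeR adjusted p = 0.0122). Its highest value, in oxidized casein MR 1, stood well above the other 5 libraries of that diet.

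Idh3a, the catalytic subunit gene on chromosome 9 (54586334 to 54604661, + strand), had the largest fold change of the 9. It ranged over 322 to 554 CPM, median 386, in oxidized casein MR libraries, against 124 to 283 CPM, median 197, in casein control libraries. The lowest restricted library was thus above the highest control, and the gene rose 2.08-fold (log2 fold change 1.05 ± 0.20 SE, edgeR adjusted p = 0.00465). Idh3b (chromosome 2, 130279309 to 130284547, - strand) covered 187 to 329 CPM, median 242, in oxidized casein MR libraries and 93.8 to 161 CPM, median 121, in casein control libraries. These ranges were also separate, with a log2 fold change of 0.95 ± 0.20 (edgeR adjusted p = 0.00866). The 3′ end of Idh3b shares 5 bases with Nop56 on the opposite strand, whose level was 10.3 to 34.4 CPM over all libraries, and whether counting used strand is not stated. Nop56 had a log2 fold change of -0.39 ± 0.24 (edgeR adjusted p = 0.441) in this pair. Idh3g (chromosome X, 73778963 to 73786897, - strand) covered 185 to 343 CPM, median 252, in oxidized casein MR libraries and 100.3 to 195 CPM, median 146, in casein control libraries. Here 5 of 6 restricted libraries lay above all controls, and the log2 fold change was 0.78 ± 0.20 (edgeR adjusted p = 0.0227).

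Ogdh (chromosome 11, 6291633 to 6356642, + strand), which encodes the component that decarboxylates 2-oxoglutarate, ranged over 257 to 448 CPM, median 329, in oxidized casein MR libraries, against 124 to 226 CPM, median 170, in casein control libraries. The ranges were separate and the gene rose 1.89-fold (log2 fold change 0.92 ± 0.19 SE, edgeR adjusted p = 0.00706). Dlst (chromosome 12, 85110833 to 85134845, + strand), which encodes the transferase that passes the succinyl group to CoA, ranged over 166 to 311 CPM, median 219, in oxidized casein MR libraries and 89.9 to 174 CPM, median 130, in casein control libraries. Of the restricted libraries, 5 of 6 were above all controls, and the gene rose 1.77-fold (log2 fold change 0.82 ± 0.21 SE, edgeR adjusted p = 0.0257).

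Of the succinyl-CoA synthetase genes, Sucla2 (chromosome 14, 73525319 to 73596142, + strand) ranged over 169 to 357 CPM, median 248, in oxidized casein MR libraries, against 84.7 to 180 CPM, median 127, in casein control libraries. Its rise was 1.97-fold, with 5 of 6 restricted libraries above all controls (log2 fold change 0.98 ± 0.21 SE, edgeR adjusted p = 0.00856). Suclg1, the shared α subunit gene (chromosome 6, 73248382 to 73276911, + strand), ranged over 184 to 419 CPM, median 278, in oxidized casein MR libraries and 98.0 to 195 CPM, median 148, in casein control libraries. It rose 1.85-fold, again with 5 of 6 above all controls (log2 fold change 0.89 ± 0.24 SE, edgeR adjusted p = 0.0367). Suclg2, on the same chromosome (95473009 to 95718800, - strand), ranged over 20.1 to 29.9 CPM, median 22.9, in oxidized casein MR libraries and 11.3 to 22.9 CPM, median 17.5, in casein control libraries. These ranges overlapped, with 3 of 6 restricted libraries above all controls, and the log2 fold change of 0.49 ± 0.16 did not pass (edgeR adjusted p = 0.0882).

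The call rested in part on single libraries. Idh3g, Dlst and Suclg1 lost it without oxidized casein MR 1, without casein control 4 or without casein control 6, which left 5 of 9 in each case. Their log2 fold changes were then 0.67 to 0.73 for Idh3g, 0.70 to 0.79 for Dlst and 0.73 to 0.86 for Suclg1. Dlst (0.77, edgeR adjusted p = 0.0703) and Suclg1 (0.86, 0.0863) also lost it without casein control 1, and Suclg1 without oxidized casein MR 5 (0.88, 0.0541). Suclg2 passed without casein control 3 (log2 fold change 0.58, edgeR adjusted p = 0.0385) and with DESeq2 (0.50, adjusted p = 0.0384). The lymph node share differed between these diets, so the comparison was also made within each set, an alternative chosen after seeing the data. Among libraries with lymph node transcripts (2 against 4) the 9 log2 fold changes ran from 0.31 to 1.01, median 0.87, and edgeR called 0 of 9, where 0.032% of tested genes were called higher. At an unadjusted p under 0.05 stood 8 of 9, where 5.83% of tested genes were higher at that level. Among libraries without them (4 against 2) they ran from 0.61 to 1.16, median 1.01, and 2 of 9 were called, Idh3b and Ogdh, where 0.474% of tested genes were called higher. With the mitochondrially encoded genes removed before scaling, or with a B cell or white adipocyte marker score as a covariate, 8 of 9 were called in this pair. The share of all tested genes called in this pair at these settings, or without single libraries, is not reported here.

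**Figure D2:**
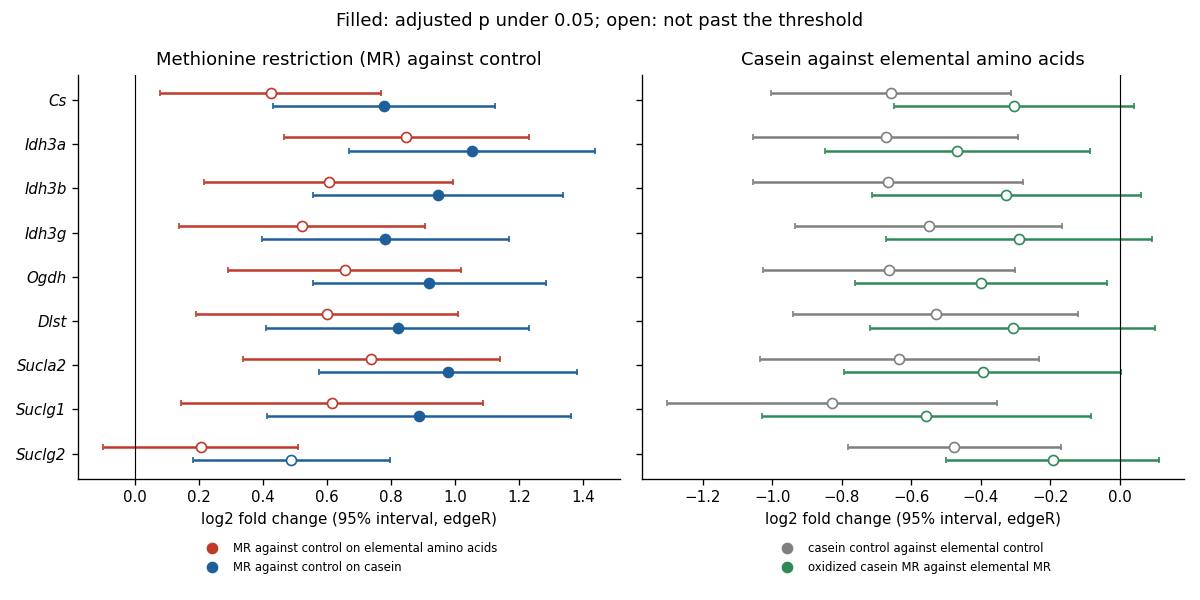
Log2 fold change (horizontal axis) of each gene with its 95% interval, a normal approximation derived from edgeR's F statistic. The left panel shows methionine restriction against control and the right panel casein against elemental amino acids. Filled points passed the adjusted threshold, and they are found for 8 genes in the casein MR comparison and for no gene in the others.

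On elemental amino acids, 0 of the 9 genes were called by edgeR's quasi-likelihood test, where 0.217% of tested genes were called higher. All 9 estimates were positive, as were 46.1% of those of all tested genes, with a median log2 fold change of 0.61, against -0.02 over all tested genes. At an unadjusted p under 0.05 stood 8 of the 9, where 5.08% of tested genes were higher at that level. DESeq2 called 3 of 9, Idh3a, Ogdh and Sucla2, where it called 1.05% of tested genes higher, and limma voom called 0 of 9, where it called 0.316% higher. Without elemental control 1, the highest control for most of these genes, edgeR called 5 of 9, Idh3a, Idh3b, Ogdh, Dlst and Sucla2, where 1.33% of tested genes were called higher. It called Idh3a alone without elemental MR 3, oxidized casein MR 1, casein control 3 or casein control 6. Other settings lowered the estimates. The median log2 fold change was 0.52 (range 0.24 to 0.73) without both libraries high in muscle transcripts, and 0.49 without elemental control 2. Among libraries with lymph node transcripts it was 0.45. Among those without, which hold 1 elemental MR library, it was 0.93, with 8 of 9 positive.

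Idh3a had the largest estimate here too. It ranged over 414 to 737 CPM, median 562, in elemental MR libraries, against 196 to 413 CPM, median 313, in elemental control libraries. It was the one gene of the 9 with every restricted library above every control, a separation that 0.573% of tested genes showed. Its log2 fold change was 0.85 ± 0.20 SE with an edgeR adjusted p of 0.0674. Sucla2 covered 272 to 406 CPM, median 322, in elemental MR libraries and 118 to 304 CPM, median 183, in elemental control libraries, with 4 of 6 restricted libraries above all controls. Its log2 fold change was 0.74 ± 0.20 (edgeR adjusted p = 0.142). Ogdh covered 369 to 555 CPM, median 426, in elemental MR libraries and 186 to 426 CPM, median 253, in elemental control libraries, with 3 of 6 above all controls. Its log2 fold change was 0.65 ± 0.19 (edgeR adjusted p = 0.15).

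The remaining estimates lay lower and their ranges overlapped more. Cs covered 358 to 565 CPM, median 456, in elemental MR libraries and 241 to 513 CPM, median 308, in elemental control libraries (log2 fold change 0.42 ± 0.18, edgeR adjusted p = 0.380). Suclg1 covered 337 to 523 CPM, median 416, in elemental MR libraries and 142 to 477 CPM, median 227, in elemental control libraries, the upper end being elemental control 1 (0.62 ± 0.24, edgeR adjusted p = 0.336). Idh3b, Dlst and Idh3g had log2 fold changes of 0.61, 0.60 and 0.52, with edgeR adjusted p-values of 0.234, 0.274 and 0.311. Suclg2 had the smallest, 0.21 with a 95% interval of -0.10 to 0.51 (edgeR adjusted p = 0.740), and it ranged over 20.7 to 36.9 CPM in elemental MR libraries and 22.1 to 27.4 CPM in elemental control libraries.

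Whether restriction acted differently on the protein sources was tested as the difference between the log2 fold changes, casein minus elemental. All 9 differences were positive, as were 51.3% of those of tested genes, from 0.21 for Idh3a to 0.35 for Cs, and each was of the order of its own SE, which ran from 0.22 to 0.34. Their median was 0.27, and without elemental control 1 it was 0.13, with a range of 0.013 (Dlst) to 0.32. Among libraries without lymph node transcripts it was 0.042, with 5 of 9 positive. That set holds both libraries high in muscle transcripts, among them its only elemental MR library. Muscle and lymph node content therefore cannot be told apart in it. Over all 24 libraries, none of 9 passed (edgeR adjusted p = 0.910 for each) and none reached an unadjusted p under 0.05. Of all tested genes 0% were called, with 3.33% at an unadjusted p under 0.05. DESeq2 and limma voom also called 0 of 9, where they called 0.0132% and 0% of tested genes. For Idh3a the 95% interval of the difference was -0.33 to 0.74 on the log2 scale, so the call on casein and the missed call on elemental amino acids were not shown to differ. Averaged over both protein sources, 8 of 9 genes rose, where 5.23% of tested genes were called higher. Idh3a led with 0.95 ± 0.14 (edgeR adjusted p = 0.000211), Sucla2 had 0.86 ± 0.15 (0.00074), Ogdh 0.79 ± 0.13 (0.000662) and Cs 0.60 ± 0.12 (0.00324). Suclg2 was again the exception at 0.35 ± 0.11 (edgeR adjusted p = 0.0598), and it passed without elemental MR 2 or 3, elemental control 3, oxidized casein MR 5 or casein control 3 (edgeR adjusted p 0.0265 to 0.0493). It also passed with DESeq2 (adjusted p = 0.0271), and in edgeR with a B cell score (0.0332) or white adipocyte score (0.0374) as covariate or with the mitochondrially encoded genes removed (0.0418). Within either lymph node set, 5 of 9 were called in the averaged comparison, where 1.74% of tested genes were called higher in libraries with lymph node transcripts and 1.04% in those without.

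The protein source comparisons share libraries with those above, casein control and elemental control in turn serving as the baseline there, so the values are given side by side only. In casein control libraries against elemental control libraries all 9 estimates were negative, as were 46.4% of those of tested genes, with a median log2 fold change of -0.66, against 0.02 over all tested genes, and 0 of 9 were called by edgeR, where 0.646% of tested genes were called lower. All 9 had an unadjusted p under 0.05, where 9.54% of tested genes were lower at that level. Suclg1 had the largest estimate, -0.83 ± 0.24 (edgeR adjusted p = 0.112), with 98.0 to 195 CPM in casein control libraries and 142 to 477 CPM in elemental control libraries. Cs came nearest to the threshold at -0.66 ± 0.18 (edgeR adjusted p = 0.0820), and Suclg2 had the smallest estimate, -0.48 ± 0.16 (0.163). DESeq2 called 5 of 9, where it called 2.47% of tested genes lower, and limma voom called 0 of 9, where it called 0.521% lower. With edgeR 5 of 9 were called without elemental control 2, 1 of the libraries high in muscle transcripts, where 1.29% of tested genes were called lower. Without elemental control 1 the median was -0.48, with a range of -0.58 to -0.28 (Dlst), and none of the 9 passed. Among libraries with lymph node transcripts the median was -0.78 and Cs alone passed (edgeR adjusted p = 0.0355). The share of all tested genes called is not reported at either setting. Among libraries without lymph node transcripts the median was -0.28, with a range of -0.45 to -0.07. Elemental control 2, high in muscle transcripts, is in that set.

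Markers of other cells differed between these diets too. The 8 brown and beige adipocyte markers had a median log2 fold change of -1.37 in casein control against elemental control, all 8 negative and 1 of them called lower, Kcnk3. The 10 skeletal muscle markers had a median of -3.54, with 0 of 10 called and 9 at an unadjusted p under 0.05, and the 7 hepatocyte markers -2.46, with 0 of 7 called and 7 at that level. For both lists a single elemental control library stood far above the rest of that diet. Summed muscle markers had medians of 127 CPM in elemental control and 108 CPM in casein control, with 11646 CPM in the highest elemental control library. Summed hepatocyte markers had medians of 887 and 437 CPM, with 9827 CPM in the highest elemental control library. The part of these markers in the differences of the 9 genes was not tested.

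In oxidized casein MR libraries against elemental MR libraries all 9 estimates were negative as well, as were 54.4% of those of tested genes, from -0.19 for Suclg2 to -0.56 for Suclg1, and none was called by edgeR, where 0% of tested genes were. Idh3a (-0.47 ± 0.19), Ogdh (-0.40 ± 0.18) and Suclg1 (-0.56 ± 0.24) had an unadjusted p under 0.05, where 3.14% of tested genes were lower at that level, and their edgeR adjusted p-values were 0.666, 0.710 and 0.680. DESeq2 and limma voom called 0 of 9, where they called 0.0791% and 0% of tested genes.

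Ratios within a library do not depend on how libraries are scaled, and 5 pairs of transcripts were compared in both restricted diets, 10 tests in all. None passed after Benjamini-Hochberg adjustment. The log2 ratio of Sucla2 to Suclg2, the alternative β subunits, was 3.57 ± 0.30 in elemental MR and 2.96 ± 0.47 in elemental control (SD, n = 6 each; 2-sided exact permutation test, p = 0.0303, adjusted p = 0.0779, smallest p possible 0.00216). On casein it was 3.33 ± 0.27 in oxidized casein MR and 2.87 ± 0.38 in casein control (exact permutation p = 0.0390, adjusted p = 0.0779). The ADP-using subunit transcript thus had the higher CPM in every diet, and the ranges of restricted and control libraries overlapped on both sources. Without elemental control 1 the elemental difference passed (0.77, exact permutation adjusted p = 0.0433). Without both libraries high in muscle transcripts it was 0.42, the lowest of the alternative settings. Over those settings the exact permutation adjusted p reached 0.185 on elemental amino acids and 0.147 on casein.

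The log2 ratio of Cs to Idh3a was -0.27 ± 0.17 in elemental MR and 0.15 ± 0.16 in elemental control, with 5 of 6 restricted libraries below all controls (exact permutation p = 0.00649, adjusted p = 0.0649). It was -0.11 ± 0.03 in oxidized casein MR and 0.18 ± 0.22 in casein control (exact permutation p = 0.0216, adjusted p = 0.0779). The sign of these means restates, from the same values, the change of the leading gene by diet described above. By mean, Idh3a was over Cs with restriction, and Cs over Idh3a without. By median, elemental control had Idh3a (313 CPM) over Cs (308 CPM). Single libraries also went the other way. The log2 ratio was -0.055 in elemental control 6, -0.0039 in casein control 2, -0.18 in casein control 3 and 0.054 in elemental MR 3. The difference passed on elemental amino acids without elemental MR 3 (-0.48, adjusted p = 0.0216) or without elemental control 1 (-0.38, adjusted p = 0.0433), and on casein without casein control 3 (-0.36, adjusted p = 0.0216), each by exact permutation. Without both libraries high in muscle transcripts the elemental difference was -0.376. Over the alternative settings the exact permutation adjusted p reached 0.119 on elemental amino acids and 0.0974 on casein.

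Within the isocitrate dehydrogenase, the log2 ratio of Idh3a to Idh3g was 0.82 ± 0.23 in elemental MR and 0.52 ± 0.18 in elemental control (exact permutation adjusted p = 0.0779), and 0.66 ± 0.11 in oxidized casein MR and 0.38 ± 0.36 in casein control (exact permutation adjusted p = 0.115). The elemental difference passed without elemental MR 3 (0.38, exact permutation adjusted p = 0.0433). Over the alternative settings its exact permutation adjusted p reached 0.185. Idh3a to Idh3b differed by 0.20 and 0.13 and Ogdh to Dlst by 0.04 and 0.10 between restricted and control libraries on elemental amino acids and on casein. The exact permutation adjusted p-values of these 4 tests ran from 0.192 to 0.677. On casein, leaving out casein control 2 brought Idh3a to Idh3b to 0.014 and Idh3a to Idh3g to 0.16, and leaving out casein control 5 brought Ogdh to Dlst to 0.041.

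**Figure D3:**
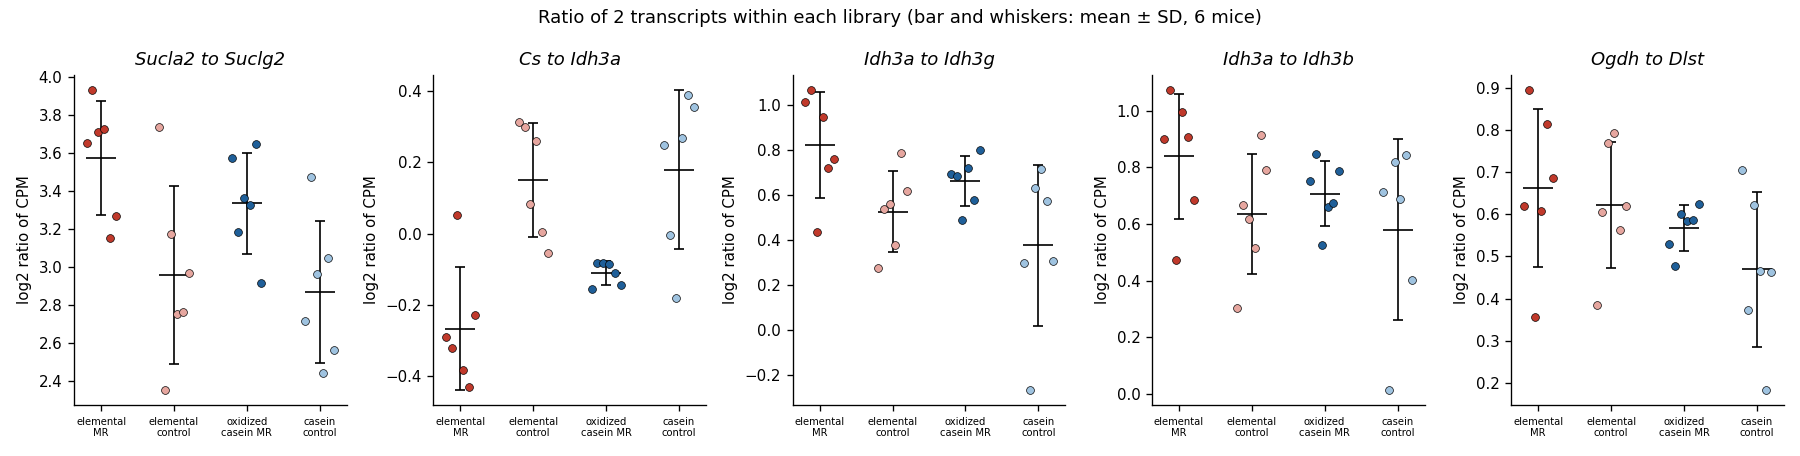
Log2 ratio of the CPM of the named transcripts (vertical axis, each panel on its own scale) in each library by diet, with the mean ± SD of 6 mice. In the Cs to Idh3a panel the means are below 0 on both restricted diets and above 0 on both control diets.

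The 9 transcripts moved together among mice on the same diet. After each diet's mean was subtracted, Pearson's r over the 24 libraries had a median of 0.845 over the 36 pairs of genes, from 0.125 for Dlst with Suclg2 to 0.974 for Idh3b with Suclg1. Suclg2 stood apart, with a median r of 0.263 with the other genes, whereas the other 8 genes had medians from 0.757 (Cs) to 0.951 (Suclg1). The levels share library and depth, and the coefficients are given as descriptions. With a score of 12 mitochondrial mass genes (porins, import receptors, chaperones and the like) r was 0.832 to 0.909 for the 8 genes and 0.415 for Suclg2. With the B cell score it was -0.03 to 0.396, and with the white adipocyte score -0.345 to 0.137.

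**Figure D4:**
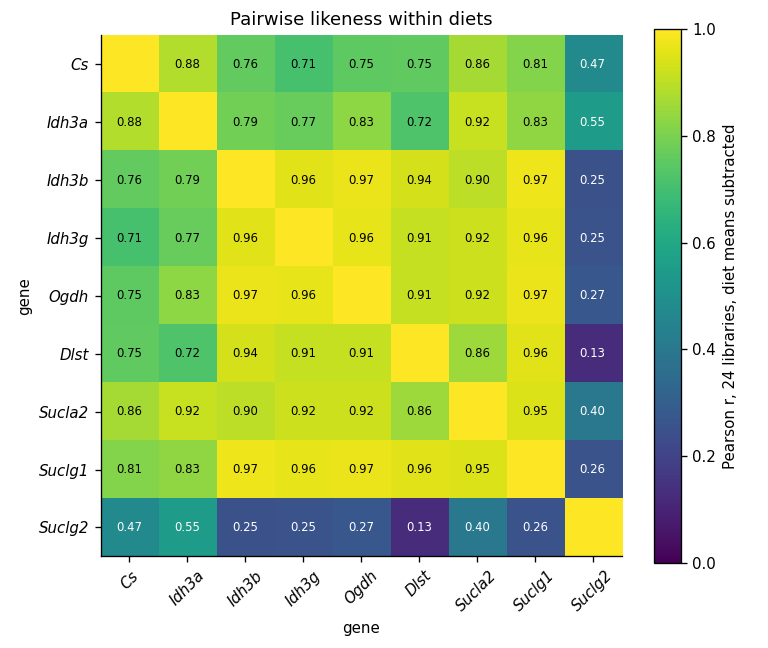
Pearson's r between each pair of the 9 genes (rows and columns; colour scale from 0 to 1) over 24 libraries after subtracting diet means of log2 CPM. Values among the first 8 genes are high, and the Suclg2 row and column are low.

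Among 9055 other genes that averaged at least 3 on the log2 CPM scale, those most like their mean pattern over the same 24 libraries were Cyc1 (r = 0.974), Dlat (0.972), Cox5b (0.967), mt-Cytb (0.964) and Uqcrc2 (0.964). Cyc1, Uqcrc2 and mt-Cytb encode parts of respiratory complex III, Cox5b a part of complex IV, and Dlat the E2 component of pyruvate dehydrogenase. These 5 had log2 fold changes of 0.82 to 1.04 in oxidized casein MR against casein control (edgeR adjusted p 0.00725 to 0.0110) and of 0.45 to 0.61 in elemental MR against elemental control (edgeR adjusted p 0.200 to 0.466).

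Most of the rest of the cycle also rose on casein. Of its 9 genes, 7 were called higher and 0 lower in oxidized casein MR against casein control, where 3.35% of tested genes were called higher, with a median log2 fold change of 0.76. Dld, the E3 component shared by the 2-oxoglutarate and pyruvate complexes, rose 1.81-fold (edgeR adjusted p = 0.00706), Sdhb of succinate dehydrogenase 1.72-fold (0.0172) and Fh1, fumarase, 1.69-fold (0.0250). Idh2, the NADP-dependent mitochondrial isocitrate dehydrogenase, had a log2 fold change of 0.27 ± 0.13 (edgeR adjusted p = 0.280) and Sdhd 1.03 ± 0.44 (0.234). In elemental MR against elemental control 0 of the 9 were called, where 0.217% of tested genes were called higher, with a median of 0.49.

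Of 8 genes for pyruvate and glutamate entry, 5 were higher and 1 lower in oxidized casein MR against casein control, where 3.35% of tested genes were called higher and 0.461% lower. Dlat and Pdhb, of pyruvate dehydrogenase, both rose 2.05-fold (edgeR adjusted p = 0.00725 and 0.0116), and Pdhx 1.94-fold (0.00983), and Pdha1 of the same complex also passed (0.00619). In elemental MR against elemental control 0 of the 8 were called, with a median of 0.15, beside 0.90 on casein. The difference between the MR effects was called for 0 of the 8, with a median of 0.49 and 3 at an unadjusted p under 0.05. In casein control against elemental control 4 of the 8 were lower, where 0.646% of tested genes were: Pdhb fell by 1.25, Dlat by 1.11, Pdha1 by 1.06 and Pcx, pyruvate carboxylase, by 0.80 on the log2 scale.

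On the cytosolic side, 3 of 8 genes for citrate and oxoglutarate handling were higher in oxidized casein MR against casein control, beside 3.35% of tested genes, with a median log2 fold change of 0.51. ATP citrate lyase (Acly), which splits citrate for fatty acid synthesis, averaged 697 ± 280 CPM in oxidized casein MR and 265 ± 116 CPM in casein control libraries and rose 2.63-fold (edgeR adjusted p = 0.0113). Slc25a1, the mitochondrial citrate carrier, rose 1.92-fold (0.0104) and Me1, the malic enzyme, 1.80-fold (0.0205). On elemental amino acids the same list had 0 of 8 called and a median of 0.06, with Acly at 1114 ± 414 CPM in elemental MR and 1088 ± 362 CPM in elemental control libraries. In casein control against elemental control, Acly fell by 2.04, Slc25a1 by 1.41 and Me1 by 1.31 on the log2 scale (edgeR adjusted p = 0.00427, 0.00247 and 0.00510), and the difference between the MR effects did not pass for these 3 genes (edgeR adjusted p = 0.910 each).

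Of 6 genes for succinyl-CoA entry and use outside the cycle, 1 was higher in oxidized casein MR against casein control (3.35% of tested genes were), Pccb, a subunit of propionyl-CoA carboxylase (1.39-fold, edgeR adjusted p = 0.0243), and 0 in elemental MR against elemental control. Of 3 paralogues of the 9 genes only Dhtkd1, a relative of Ogdh that acts on 2-oxoadipate, was measured, at 1.02 to 6.47 CPM.

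**Figure D5:**
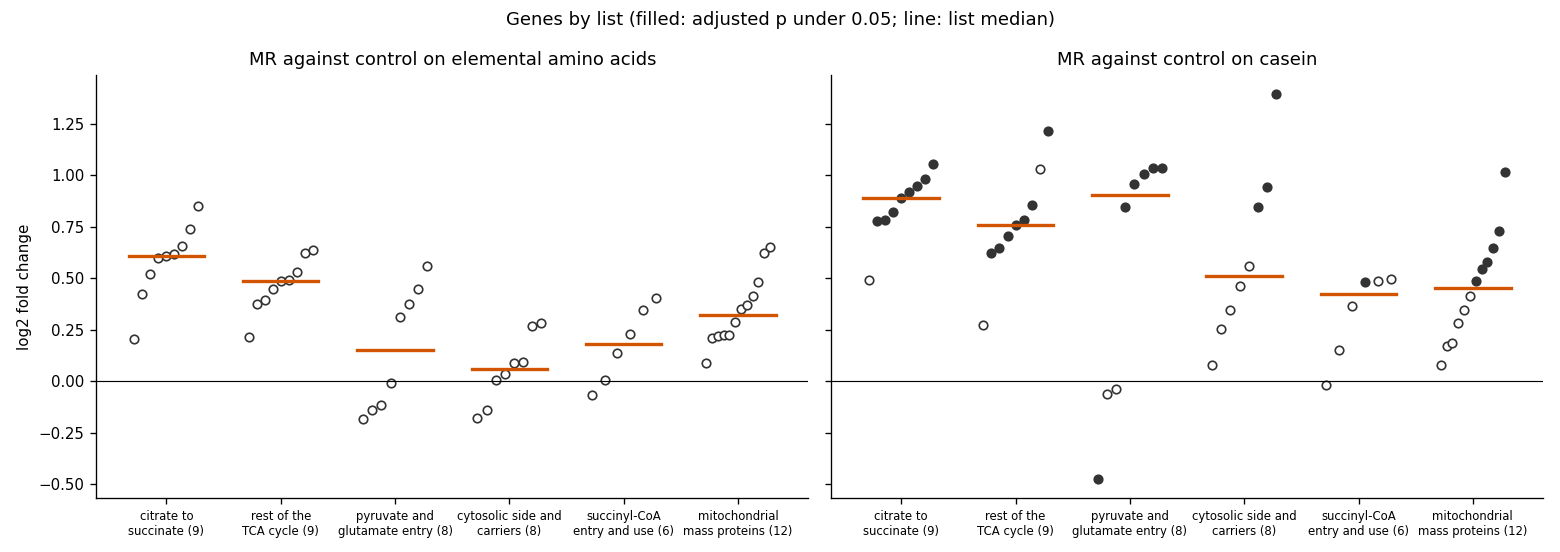
Log2 fold change (vertical axis) of each gene, grouped by list (number of genes in brackets), for elemental MR against elemental control (left) and oxidized casein MR against casein control (right). Filled points passed the adjusted threshold and lines are list medians, which on casein are 0.89 for citrate to succinate, 0.76 for the rest of the cycle and 0.45 for the mitochondrial mass proteins.

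Other markers differed along with these genes. Of the 12 mitochondrial mass genes, 6 were higher in oxidized casein MR against casein control, where 3.35% of tested genes were, with a median log2 fold change of 0.45, among them Cycs (2.02-fold) and Hspa9 (1.66-fold), and 0 of 12 were called in elemental MR against elemental control, with a median of 0.32. Of 8 brown and beige adipocyte markers, 4 were higher on casein, Elovl3 10.9-fold, Cox7a1 4.47-fold, Cox8b 3.01-fold and Kcnk3 2.43-fold, and 1 on elemental amino acids, where 0.217% of tested genes were, Kcnk3 1.99-fold (edgeR adjusted p = 0.0200). Ucp1, the uncoupling protein that defines these cells, averaged 1843 ± 590 CPM in elemental MR and 480 ± 427 CPM in elemental control, and 1037 ± 601 CPM in oxidized casein MR and 140 ± 166 CPM in casein control (SD, n = 6 each), and did not pass in either comparison. All 8 markers had positive estimates in both comparisons. At an unadjusted p under 0.05 stood 7 on casein. On elemental amino acids 6 did, where 5.08% of tested genes were higher at that level. Averaged over both protein sources, edgeR called 7 of the 8 higher, where 5.23% of tested genes were. Their median estimate there was 1.33 on the log2 scale. The summed level of the 8 markers was 3257 to 6317 CPM in elemental MR, 380 to 3666 in elemental control, 956 to 4317 in oxidized casein MR and 246 to 1340 in casein control, with no marker at 0. The medians of that sum, 4186, 1375, 2851 and 458 CPM in the same sequence of diets, rank as the medians of the 9 genes do, apart from Suclg2. For Suclg2 the median was higher in elemental control than in oxidized casein MR. The ranking was not particular to these markers. The summed mitochondrial mass genes had medians of 1544, 1181, 1246 and 903 CPM in that sequence of diets. The rest of the cycle had 3610, 2445, 2893 and 1703 CPM. The part of the brown and beige marker sum in the differences of the 9 genes was not tested.

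The sum of the 10 white adipocyte markers was 29341 to 45937 CPM in elemental MR, 29108 to 46449 in elemental control, 28802 to 51869 in oxidized casein MR and 21052 to 56003 in casein control, and 0 of 10 were called in either comparison. Of 6 macrophage markers, Cd68 fell by 0.96 on the log2 scale on casein (edgeR adjusted p = 0.0367) and 0 were called on elemental amino acids. No gene of the B cell (10), T cell (8), skeletal muscle (10), hepatocyte (7), keratinocyte and ductal epithelium (3 tested of 8), endothelial (5) or adipose progenitor (6) lists was called in either MR comparison. In oxidized casein MR against casein control the median log2 fold change was 0.94 for the skeletal muscle list (10 of 10 positive), 0.20 for the hepatocyte list, -1.06 for the B cell list and -0.67 for the T cell list. In elemental MR against elemental control it was -1.03 for the skeletal muscle list (0 of 10 positive), -1.77 for the hepatocyte list (0 of 7 positive), 0.18 for the B cell list and 0.24 for the T cell list. Summed muscle markers had medians of 124 CPM in elemental MR and 127 CPM in elemental control, with maxima of 5115 and 11646 CPM. Summed hepatocyte markers had medians of 638 and 887 CPM, with maxima of 1489 and 9827 CPM. The part of these markers in the differences of the 9 genes was not tested.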

How the data were processed

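The authors deposited raw counts per gene and a normalized signal table; libraries were made with a 3′ mRNA (QuantSeq) kit and read for 50 bp in 1 direction, per the labels' protocols. Each normalized value equals the raw count divided by a size factor per library. Builds GRCm38 and mm10, DESeq2 1.18.1 and R 3.4.3 appear in the submitters' processing notes. Which aligner, counter and strand setting were used is not given here. Gene positions came from GENCODE M21 (16771 of 16821 symbols matched) and promoter windows from RefSeq. The normalized table served to find the genes by symbol; group mean ratios from it differed from those in CPM by at most 1.50%.

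The main test was edgeR 4.0.16 under R 4.3.3 on the counts (filterByExpr, which removed 1645 genes; TMM; 1 mean per diet over all 24 libraries; robust quasi-likelihood F tests, 2-sided; Benjamini-Hochberg over 15176 genes; threshold 0.05). Log2 CPM for ratios and scores used a prior count of 2, and ratios were tested in Python 3.11.15 with scipy 1.17.1. Each edgeR SE was derived as the absolute log2 fold change divided by the square root of the F statistic. The 95% intervals use a normal multiplier of that SE, so they are slightly narrower than the F test implies. The scripts were tested on simulated data. Alternatives were DESeq2 1.42.0, limma 3.58.1 (voom), other scalings and filters, marker covariates, and each library left out.

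The members and gene lists were chosen with earlier results of these data known. Every one of the 9 genes is named. From other lists, the rule takes up to the 4 largest changes past the threshold in each comparison, or the largest estimate where none passed. It also takes the 5 genes most like the mean pattern. Some genes that this rule would name are not reported here. Beyond that rule, Idh2, Sdhd, Ucp1, Adipoq, Acta1, Alb, Nop56 and Dhtkd1 were named for their role. Reads have no molecular identifiers, so precision rests on the spread between mice. Mice on 1 diet never agreed within counting error (smallest chi-square per degree of freedom 6.21).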

Additional observations from a re-analysis of the deposited data

Results flagged for a closer look

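A single library stood far from the other 5 of its diet for 2 genes. Cs reached 497 CPM in oxidized casein MR 1, where the other libraries of that diet had 292 to 366 CPM, and Idh3a reached 554 CPM in the same library, where the others had 322 to 393 CPM. Of 56 sets of 6 values examined for such a gap, 2 were marked, and chance marks about 1 in 20, or 2.8 of 56. Both genes stayed called in oxidized casein MR against casein control without that library.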

How the results depend on the processing

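No paired analysis was possible because the labels number individual mice and the diets share no replicate number. For members called on elemental amino acids (0 with edgeR on all libraries), DESeq2 gave 3, where it called 1.05% of tested genes higher. Leaving out 1 library gave 0 to 5, the 5 without elemental control 1, where 1.33% were called higher. Without both muscle-rich libraries the median log2 fold change was 0.52, and without elemental control 2 it was 0.49. The median log2 fold change was 0.59 with a B cell score as covariate and 0.61 with a white adipocyte score. Idh3a passed with both (edgeR adjusted p = 0.0230 and 0.0156), and Ogdh (0.0344) and Sucla2 (0.0458) with the white adipocyte score. For members called on casein (8), libraries with lymph node transcripts gave 0, those without 2, and leaving out 1 library 5 to 9. The average MR effect (8) gave 5 in each lymph node set. Casein control against elemental control (0) gave 5 with DESeq2, where it called 2.47% of tested genes lower. Leaving out 1 library gave 0 to 5, the 5 without elemental control 2, where 1.29% were called lower. The median log2 fold change was -0.72 without both muscle-rich libraries, where Cs, Ogdh and Suclg1 passed (edgeR adjusted p 0.0463 to 0.0489). It was -0.66 with either covariate, where Cs and Ogdh passed (0.0367 to 0.0390). Within libraries with lymph node transcripts it was -0.78, and Cs passed (0.0355). Smaller counts within lymph node sets come with fewer libraries, and otherwise the cause was not tested. Where no share of all tested genes stands beside a count, here or in the results, none is reported.

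Leaving out 1 library moved the elemental ratio difference to 0.25 to 0.38 for Idh3a to Idh3g, -0.48 to -0.38 for Cs to Idh3a and 0.50 to 0.77 for Sucla2 to Suclg2, and the casein one to -0.36 to -0.25 for Cs to Idh3a, 0.014 to 0.18 for Idh3a to Idh3b, 0.16 to 0.35 for Idh3a to Idh3g, 0.041 to 0.145 for Ogdh to Dlst and 0.38 to 0.59 for Sucla2 to Suclg2. The lowest casein values came without casein control 2 for Idh3a to Idh3b and Idh3a to Idh3g, and without casein control 5 for Ogdh to Dlst. The elemental Ogdh to Dlst difference (0.04) ranged over -0.0063 to 0.10, and reversed to -0.0084 without both muscle-rich libraries, to -0.0051 without elemental MR 2 and to -0.0063 without elemental control 1.

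Within libraries without lymph node transcripts, which hold 1 elemental MR library assumed to vary like the others, signs reversed for Suclg2 on elemental amino acids (-0.13), for the difference between MR effects of Cs (-0.10), Idh3a (-0.10), Sucla2 (-0.071) and Suclg1 (-0.042), and for oxidized casein MR against elemental MR of Dlst (0.057) and Suclg2 (0.29). That elemental MR library and elemental control 2, also in this set, were high in muscle transcripts. Muscle and lymph node content therefore cannot be told apart there. The lymph node sets were chosen after seeing the data.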
